A study of Mus musculus with 8 samples.

Results

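The genes described here encode the machinery between G protein-coupled receptors and cyclic nucleotides: the alpha, beta and gamma subunits of heterotrimeric G proteins, the regulators of G protein signaling (RGS proteins), adenylyl cyclases, phosphodiesterases, beta-arrestin 1 and phosducin. Members were taken by gene symbol from the annotation of the array, and for a gene with several probe sets the one with the highest mean signal was used. The phosphodiesterase gene *Pde1b* was left out by name and is counted among the striatal markers. It read 2314 and 2381 in WT at ZT4, 3927 and 3862 in WT at ZT16, 3111 and 4806 in S1/2-/- mice at ZT4 and 3129 and 4331 in S1/2-/- mice at ZT16, with a WT change of 0.73 (log2, adjusted p = 0.504), and the counts of phosphodiesterases do not hold it. This gave 60 genes with 89 probe sets, of 8251 genes on the array with a single symbol. Of the 60, 48 passed the filter on dim probe sets (a mean log2 signal of at least 6.79, the 40th percentile of all probe sets) and were tested, and 12 did not. Symbol matching also took in *Pde4dip*, which encodes a scaffold that binds a phosphodiesterase, and *Gnasas1*, an antisense transcript of the *Gnas* locus, and these 2 genes are counted apart from the families.

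Cortex of 8 individual mice was measured, with 1 Affymetrix array per mouse. WT mice and S1/2-/- mice, which lack both SHARP1 (BHLHE41) and SHARP2 (BHLHE40), were each taken at ZT4 in the light phase and at ZT16 in the dark phase, with 2 mice per genotype and time. ZT is the time in hours after lights on, and mice are mostly awake in the dark phase. All mice were labelled as C57/bl6 and 4 months old, were housed in a cycle of 12 h light and 12 h dark, and received no other treatment. The methods describe male mice bred from parents heterozygous for both genes, and the null alleles are present in the whole body from conception, so effects in cortex cannot be told apart from those of other tissues or of development. The tissue was a coronal slab behind bregma. Markers of cortical excitatory neurons were present on every array, with a summed signal of 10466 to 15900 over the 6 of 8 with a probe set. The *Bhlhe40* probe set read 983 to 1285 in WT and 834 to 1043 in S1/2-/- mice, the sources used here do not say where it lies relative to the deleted part, and *Bhlhe41* was not analysed here, so the arrays hold no check of the genotypes. A signal is the linear MAS5 value of a probe set, and changes are given on the log2 scale with the standard error (SE) of a limma fit to all 8 arrays. As signals of different probe sets depend on their probes, levels are compared between arrays and never between genes.

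In a G protein-coupled receptor signal, the receptor makes the alpha subunit exchange GDP for GTP and part from the beta-gamma dimer. Gs and Golf activate adenylyl cyclases, Gi and Go inhibit them and release beta-gamma dimers that open potassium channels, and Gq activates phospholipase C. RGS proteins speed up GTP hydrolysis and end the signal, arrestins uncouple phosphorylated receptors, phosducin binds free beta-gamma dimers, and phosphodiesterases degrade cAMP and cGMP. *Rgs2*, *Rgs4*, *Rgs16* and *Pde4b* are known to respond to neuronal activity, cAMP or the clock.

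No member passed the test in any of 7 comparisons. To pass, a probe set needed more than a 1.5-fold change and an adjusted p (Benjamini-Hochberg, over the 7453 probe sets tested) under 0.05. Between ZT4 and ZT16, 0.0134% of all probe sets were called in WT and 0% in S1/2-/- mice, and 0% were called for the difference between the genotypes in this change. S1/2-/- differed from WT in 0.0939% of probe sets at ZT4 and 0.0134% at ZT16. Averaged over genotypes 0% changed with time, and averaged over times 0.255% differed between genotypes. The arrays as a whole thus gave few calls, and the members gave 0 of 48 in each comparison. With 2 mice per group, a missed threshold does not show that values were alike.

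At an unadjusted p under 0.05, 10 of 48 members differed between ZT16 and ZT4 in WT, where 7.61% of all probe sets did, and 4 of 48 in S1/2-/- mice, where 7.31% did. For the difference between these changes the count was 6 of 48 members against 5.69% of all probe sets. Between genotypes it was 5 at ZT4 (7.29% of all probe sets), 6 at ZT16 (10.9%) and 6 over both times (12.4%), and between times over both genotypes it was 6 (9.38%). The 48 include *Pdc* and *Adcy7*, which passed the filter only through mice in which they are high. The counts at this p fell or rose when single arrays were left out. In WT the count fell without either array of ZT4 or without replicate 2 of ZT16, and rose without replicate 1 of ZT16. Those for the genotypes at ZT4 and over both times fell without either WT array of ZT4. They also fell without S1/2-/- ZT4 replicate 2 and without either S1/2-/- array of ZT16. For the genotypes at ZT16 the count fell without S1/2-/- ZT16 replicate 1 or WT ZT16 replicate 2. Without WT ZT16 replicate 1 the counts for the difference, for the genotypes at ZT16 and for time over both genotypes rose. In that fit the calls over all probe sets rose as well. Leaving out an array leaves 1 mouse in its group. Shares of all probe sets at this p were not taken for these fits, so their counts are not given.

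The median log2 change of the 48 tested members lay between -0.05 and 0.07 in the 7 comparisons, against 0.00 over the 5690 genes tested in each of them. In WT 27 of 48 members had higher signals at ZT16 and in S1/2-/- mice 24 of 48 did. S1/2-/- signals were higher in 31 of 48 members at ZT4 and in 25 of 48 at ZT16. Most members varied little: over the 8 arrays the highest signal of a tested member was 1.59 times the lowest in the median, close to 1.56 over all genes tested.

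**Figure D1:**
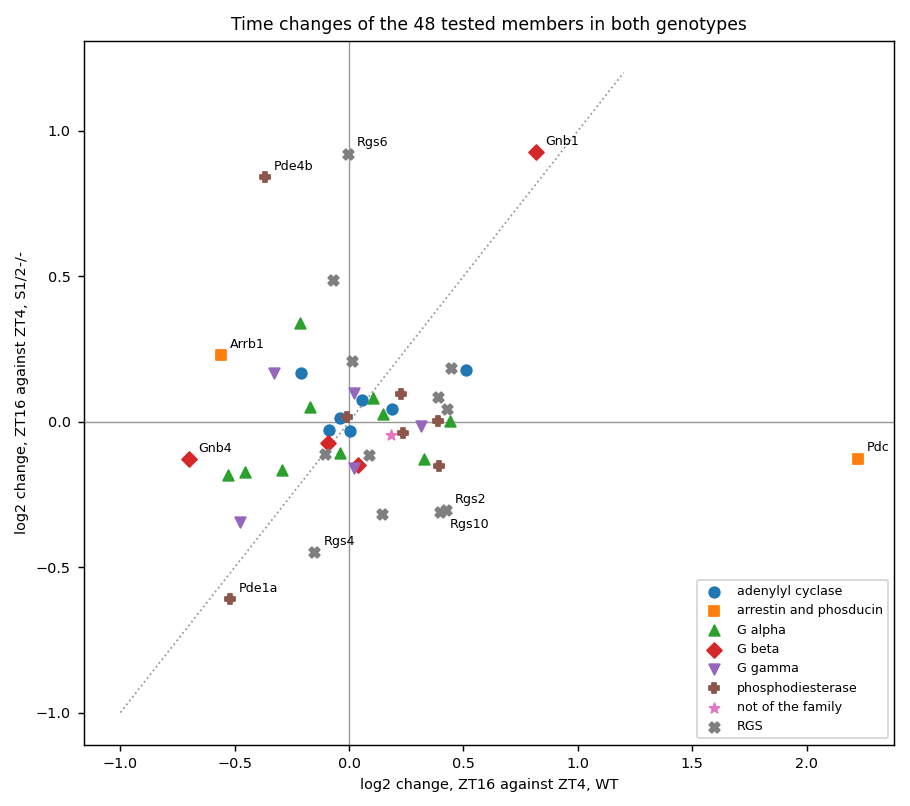
The log2 change from ZT4 to ZT16 in WT (horizontal) against that in S1/2-/- mice (vertical) is shown for the 48 tested members, 1 point per gene with the family as symbol; the dotted line marks equal changes. Most points lie near the origin. *Pdc* stands out in WT at 2.22, *Rgs6* and *Pde4b* in S1/2-/- mice at 0.92 and 0.84, and *Gnb1* in both at 0.82 and 0.93. For *Rgs6* the S1/2-/- mice at ZT4 lay far apart, at 154 and 44.7.

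Promoter sequences were searched because the SHARP proteins are known to repress from the E-box CACGTG, and because CREB, the factor at the end of the cAMP pathway, binds the cyclic AMP response element TGACGTCA and its short form TGACG. RefSeq promoters (GRCm38.p6, 250 bases before to 50 after a start site, both strands searched) matched 43 of the 60 members with 65 promoters. Since this is 71.7% of members, a comparison of their motif share with that of other genes would be void and is not made. CACGTG is in 7.15% of all 32851 promoters and in 5 of the 65, those of *Gna13*, *Gnai1*, *Gnai3*, *Rgs7* and *Rgs19*. In the first 4 of these it lies before the start site. The sequences around it are shown for these 4, because they are the members whose promoters hold the letters that the absent repressors are known to bind; capitals mark the E-box:
Gna13, chr11:109362574-109362633, plus strand: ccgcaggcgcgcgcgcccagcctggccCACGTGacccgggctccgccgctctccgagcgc
Gnai1, chr5:18360499-18360558, minus strand: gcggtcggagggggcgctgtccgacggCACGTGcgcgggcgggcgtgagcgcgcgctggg
Gnai3, chr3:108146339-108146398, minus strand: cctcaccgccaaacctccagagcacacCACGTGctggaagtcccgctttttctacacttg
Rgs7, chr1:175492546-175492601, minus strand: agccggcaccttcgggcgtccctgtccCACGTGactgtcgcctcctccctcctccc

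The whole element TGACGTCA is in 1.79% of all promoters and in 0 of the 65. The short form TGACG is in 20.81% of all promoters and in 15 of the 65, those of 13 members. It does not overlap an E-box in the stretches printed here. They are shown for *Rgs2*, *Rgs4*, *Pde4b* and *Pde1a*, the members with the letters that are described by array below as responsive to activity or cAMP or as lower at ZT16; capitals mark TGACG or, on the other strand, CGTCA:
Rgs2, chr1:144004303-144004361, minus strand: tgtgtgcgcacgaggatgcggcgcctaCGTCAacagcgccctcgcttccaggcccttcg
Rgs2, chr1:144004185-144004243, minus strand: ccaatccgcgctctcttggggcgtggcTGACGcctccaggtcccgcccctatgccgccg
Rgs4, chr1:169747847-169747892, minus strand: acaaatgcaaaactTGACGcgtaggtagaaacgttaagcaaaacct
Rgs4, chr1:169747752-169747810, minus strand: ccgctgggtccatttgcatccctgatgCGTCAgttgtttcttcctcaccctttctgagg
Pde4b, chr4:102421494-102421552, plus strand: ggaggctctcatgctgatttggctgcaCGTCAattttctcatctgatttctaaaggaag
Pde1a, chr2:80039037-80039095, minus strand: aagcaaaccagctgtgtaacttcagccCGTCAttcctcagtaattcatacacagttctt
These matches describe the letters and show no binding.

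Of the 14 G alpha genes 10 were tested. *Gnas*, which encodes the stimulatory subunit Gs, gave 35489 and 39409 in WT at ZT4, 40149 and 40161 in WT at ZT16, 36516 and 36040 in S1/2-/- mice at ZT4 and 37981 and 38840 at ZT16. Both genotypes read slightly higher at ZT16, by 0.10 in WT (SE 0.07) and 0.08 in S1/2-/- mice. *Gnao1*, encoding the abundant neuronal Go subunit, stayed between 11435 and 12569 on all arrays. Its 3 further tested probe sets had changes from -0.25 to 0.30 in the 7 comparisons, none of which passed. The other inhibitory subunits *Gnai1*, *Gnai2* and *Gnai3* and the Gz gene *Gnaz* had adjusted p of 0.452 or more in every comparison. *Gnai3* gave 610 and 545 in WT at ZT4, and 697 and 883 in WT at ZT16, a change of 0.44 (SE 0.18, adjusted p = 0.625), while 776 and 661 at ZT4 stood against 794 and 650 at ZT16 in S1/2-/- mice. WT did not overlap between times and S1/2-/- mice did.

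The G12 and G13 genes carried the other low p of the alpha family. *Gna12* gave 824 and 838 in WT at ZT4, below all other arrays, which read 872 to 1083, so that the WT change was 0.33 (SE 0.13, adjusted p = 0.625). Its second probe set did not share this, with 228 and 281 in WT at ZT4 and 265 for both WT mice at ZT16. In WT *Gna13* read 370 and 350 at ZT4 against 293 and 213 at ZT16, a change of -0.53 (SE 0.22, adjusted p = 0.625), but its second probe set gave 277 and 213 against 348 and 334, a change of 0.49 in the opposite direction. The second probe sets were looked at after the values were seen. For the 4 members with an E-box before the start site the difference between S1/2-/- and WT over both times was 0.19 for *Gna13*, 0.02 for *Gnai1*, 0.09 for *Gnai3* and -0.02 for *Rgs7*, with adjusted p from 0.665 to 0.969. The 4 alpha genes under the filter were the rod and cone transducins *Gnat1* and *Gnat2*, and *Gna14* and *Gna15*, whose signals lay between 3.5 and 145. *Gnal*, which encodes Golf of striatal neurons, was not analysed here.

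The arrays fell into low and high levels for 1 of the G beta genes. *Gnb1* encodes the beta subunit used by many G proteins of the brain, and it has 3 tested probe sets. The first gave 3525 and 3169 in WT at ZT4, 7955 and 4367 in WT at ZT16, 3306 and 6808 in S1/2-/- mice at ZT4, and 7931 and 10269 in S1/2-/- mice at ZT16. The second, of a type whose probes can be shared by several transcripts, gave in the same order 2425, 1741, 3787, 2257, 1864, 3306, 3995 and 6424. The third gave 328, 286, 1172, 264, 346, 1329, 1323 and 2317. All 3 probe sets put the same 4 mice low, namely both WT mice at ZT4, WT replicate 2 at ZT16 and S1/2-/- replicate 1 at ZT4, and the other 4 mice high.

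This split crosses the groups, since WT at ZT16 and S1/2-/- at ZT4 each had 1 mouse at either level. The fitted change with time of the first probe set was 0.82 in WT (SE 0.33, adjusted p = 0.625) and 0.93 in S1/2-/- mice (adjusted p = 0.584), and 0.87 over both genotypes (SE 0.23, adjusted p = 0.354). Without single arrays the change in S1/2-/- mice ranged from 0.41 to 1.45. The ratio of the highest to the lowest signal, 3.24, was matched or exceeded by 5.82% of the genes tested. Of the 10 tested genes nearest to *Gnb1* in RefSeq order on chromosome 4, 5 on each side, 2 also parted these 4 mice from the other 4, where 4.8% of all genes tested did so in either direction. *Faap20* was higher in the 4 mice in which *Gnb1* was low, at 594 to 696 against 328 to 558, and *Cdk11b* was lower in them, at 264 to 431 against 436 to 469. *Nadk* varied the most of the 10, from 46.0 to 234, without this split. Over all probe sets the replicate arrays of a group correlated with r from 0.936 to 0.940 on the log2 scale. The source of the levels of *Gnb1* was not tested.

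*Gnb2*, another common beta subunit, was even by comparison, with 4715 and 4900 in WT at ZT4, 4823 and 5042 in WT at ZT16, 5406 and 5660 in S1/2-/- mice at ZT4 and 4843 and 5132 in S1/2-/- mice at ZT16. Both S1/2-/- mice at ZT4 lay above all other mice, and the difference from WT at ZT4 was 0.20 (SE 0.09, adjusted p = 0.643). *Gnb5*, which encodes the beta subunit that pairs with RGS proteins of the R7 group, read 1002 to 1422. *Gnb4* read 142 in WT replicate 2 at ZT16 and 231.7 to 330.1 on the other arrays. *Gnb3*, known from cones, was under the filter.

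Of the 7 G gamma genes 5 were tested, and neither *Gng3* nor *Gng12* had an adjusted p under 0.549 with the probe set used. *Gng3*, a gamma subunit of neurons, read 7201 and 7912, 7174 and 8179 in WT at ZT4 and ZT16, and 7651 and 7677, 6771 and 6967 in S1/2-/- mice. *Gng12* read 1192 to 1575 with the groups overlapping. A second *Gng12* probe set, picked out after its values were seen, gave 306 and 299 in WT at ZT4, 198 and 162 in WT at ZT16, 315 and 306 in S1/2-/- mice at ZT4 and 381 and 347 in S1/2-/- mice at ZT16. The WT mice at ZT16 lay below all others there, and S1/2-/- minus WT at ZT16 was 1.02 (SE 0.21, adjusted p = 0.232), against 0.08 (SE 0.15) with the brighter probe set. The 2 gamma genes under the filter were *Gng4*, at 20.3 to 146.5, and the cone transducin gene *Gngt2*. *Gngt2* read 31.1 and 36.8 in WT at ZT16 and 4.57 to 12.9 on all other arrays. Of all signals of an array 10% lay under 15.2 to 17.4, so the lower values of *Gngt2* are among the dimmest. *Gng7*, of striatal neurons, was not analysed here.

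Phosducin had the largest change of any tested member, but it entered the test only through the group in which it is high. The mean log2 signal of *Pdc* was 6.84 over all arrays, just above the filter at 6.79, and 6.40 without WT at ZT16, so its changes are a description. The gene is known for its high levels in photoreceptors and the pineal gland. Its brighter probe set gave 62.4 and 61.3 in WT at ZT4, 336 and 249 in WT at ZT16, 110.3 and 96.0 in S1/2-/- mice at ZT4 and 96.9 and 91.7 in S1/2-/- mice at ZT16. Both WT mice at ZT16 lay above all others and both at ZT4 below all others, while the S1/2-/- mice lay together between them. The WT change was 4.67-fold (log2 2.22, SE 0.39, adjusted p = 0.132, or 0.248 with no filter), the S1/2-/- change was -0.13 (SE 0.39), and the difference between them was -2.35 (SE 0.56, adjusted p = 0.466). S1/2-/- minus WT was 0.73 at ZT4 and -1.61 at ZT16 (adjusted p = 0.263). The dimmer probe set, under the filter, did not share the pattern, with 23.2 and 108.6 in WT at ZT4, 37.9 and 79.8 in WT at ZT16, 33.7 and 85.3 in S1/2-/- mice at ZT4 and 91.5 and 24.5 at ZT16. Its WT change was 0.13 (SE 0.94).

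Markers of tissues next to cortex had unequal sums in these mice. Of 10 choroid plexus markers 5 had a probe set, 4 of them under the filter, and their summed signal was 3538 and 3138 in WT at ZT16, 166 and 446 in WT at ZT4, 1865 and 295 in S1/2-/- mice at ZT4 and 221 and 255 in S1/2-/- mice at ZT16. Of 13 striatal markers 5 had a probe set and all 5 were tested, with sums of 6524 and 7034 in WT at ZT4, 14275 and 18555 in WT at ZT16, 12296 and 18685 in S1/2-/- mice at ZT4 and 10419 and 16367 at ZT16. The 8 of 11 markers of pineal gland and photoreceptors with a probe set summed to 465 and 973 in WT at ZT4, 690 and 399 in WT at ZT16, 695 and 781 in S1/2-/- mice at ZT4, and 706 and 861 at ZT16, and 6 of the 8, including *Sag*, *Rcvrn* and *Tph1*, were under the filter. *Pdc* was highest in the WT mice at ZT16, at 336 and 249, where the choroid plexus sums were also highest. S1/2-/- replicate 1 at ZT4, with a choroid plexus sum of 1865, read 110.3 for *Pdc*. The S1/2-/- mice with striatal sums of 18685 at ZT4 and 16367 at ZT16 read 96.0 and 91.7. The part of the other tissues in any change given here was not tested. In such bulk samples fewer cells of a type and less RNA per cell cannot be told apart.

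**Figure D2:**
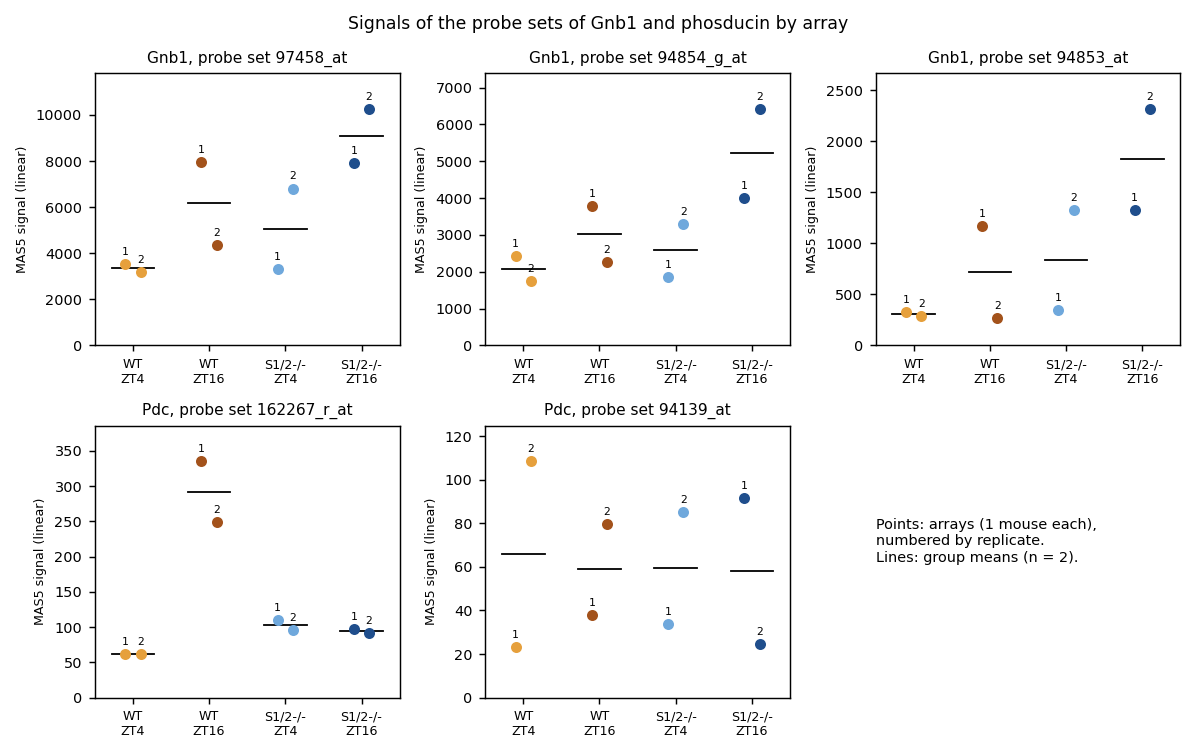
MAS5 signals (vertical, linear) of the 3 probe sets of *Gnb1* and the 2 of *Pdc* are plotted for the 4 groups, with 1 point per mouse, numbered by replicate, and a line at each group mean (n = 2). The 3 *Gnb1* probe sets put the same 4 mice low, whereas only the first *Pdc* probe set sets apart WT at ZT16, at 249 and 336.

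*Arrb1*, which encodes beta-arrestin 1, gave 1121 and 1378 in WT at ZT4, 941 and 756 in WT at ZT16, 992 and 1228 in S1/2-/- mice at ZT4 and 1443 and 1159 in S1/2-/- mice at ZT16. WT mice at ZT16 lay below all other mice. The WT change was -0.56 (SE 0.18, adjusted p = 0.604), the S1/2-/- change was 0.23, and the difference between them was 0.79 (SE 0.25, adjusted p = 0.738). S1/2-/- minus WT at ZT16 was 0.62 (SE 0.18, adjusted p = 0.318). Its second probe set, which may read related transcripts, gave 644 to 836 with a WT change of -0.06 (SE 0.16) and a difference at ZT16 of -0.09, so the pattern rested on 1 probe set. *Arrb2* was not analysed here.

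Of the 13 RGS genes 12 were tested, and 6 of these are small RGS proteins of the R4 group. *Rgs4*, which limits Gi and Gq signals in cortical neurons, gave 1346 and 1350 in WT at ZT4, 1184 and 1243 in WT at ZT16, 1648 and 1847 in S1/2-/- mice at ZT4, and 1430 and 1143 in S1/2-/- mice at ZT16. Both S1/2-/- mice at ZT4 were above all others. The change with time was -0.45 in S1/2-/- mice (SE 0.14, adjusted p = 0.539) and -0.15 in WT, and the difference between genotypes at ZT4 was 0.37 (SE 0.14, adjusted p = 0.585).

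*Rgs2*, an activity-induced regulator of Gq, had opposite changes in the genotypes. It read 754 and 602 in WT at ZT4, 925 and 881 in WT at ZT16, 815 and 886 in S1/2-/- mice at ZT4 and 636 and 746 in S1/2-/- mice at ZT16, without overlap between times in either genotype. The change was 0.42 in WT (SE 0.16, adjusted p = 0.625) and -0.30 in S1/2-/- mice (SE 0.16, adjusted p = 0.717), and the difference between them, -0.73 (SE 0.22), had an adjusted p of 0.738. *Rgs16*, which in the master clock has a daily rhythm, gave 368 and 353 in WT at ZT4, 604 and 389 in WT at ZT16, 408 and 428 in S1/2-/- mice at ZT4 and 476 and 389 at ZT16. Its WT change of 0.43 (SE 0.23, adjusted p = 0.680) came largely from replicate 1.

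For all 6 tested R4 genes (*Rgs2*, *Rgs3*, *Rgs4*, *Rgs5*, *Rgs8* and *Rgs16*) the change from ZT4 to ZT16 was lower in S1/2-/- than in WT mice, with a median difference of -0.34, where 2853 of 5690 genes tested had a positive difference. That of *Rgs5* was only -0.01, and its second probe set gave the opposite sign. The median change of the group was 0.28 in WT and -0.21 in S1/2-/- mice. These medians moved with single arrays. In WT the median was 0.10 without ZT16 replicate 2 and 0.18 without ZT16 replicate 1, and in S1/2-/- mice it was -0.12 without ZT16 replicate 2, while the median difference was -0.20 without S1/2-/- ZT4 replicate 2. The count of 6 held with quantile normalization and with median centring, and was 5 without S1/2-/- ZT4 replicate 1, S1/2-/- ZT16 replicate 2, WT ZT4 replicate 2, or either WT array of ZT16. No member of the group passed the test of this difference, and the 6 differences share the same 8 mice. Over all 12 RGS genes, 9 had a negative difference with a median of -0.28. Without S1/2-/- ZT4 replicate 2 this median was -0.16, and without WT ZT16 replicate 2 it was -0.20 with 7 of 12 negative. The second tested probe sets of *Rgs5*, *Rgs10* and *Rgs19* gave the difference the opposite sign, and that of *Rgs16* gave the same sign.

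**Figure D3:**
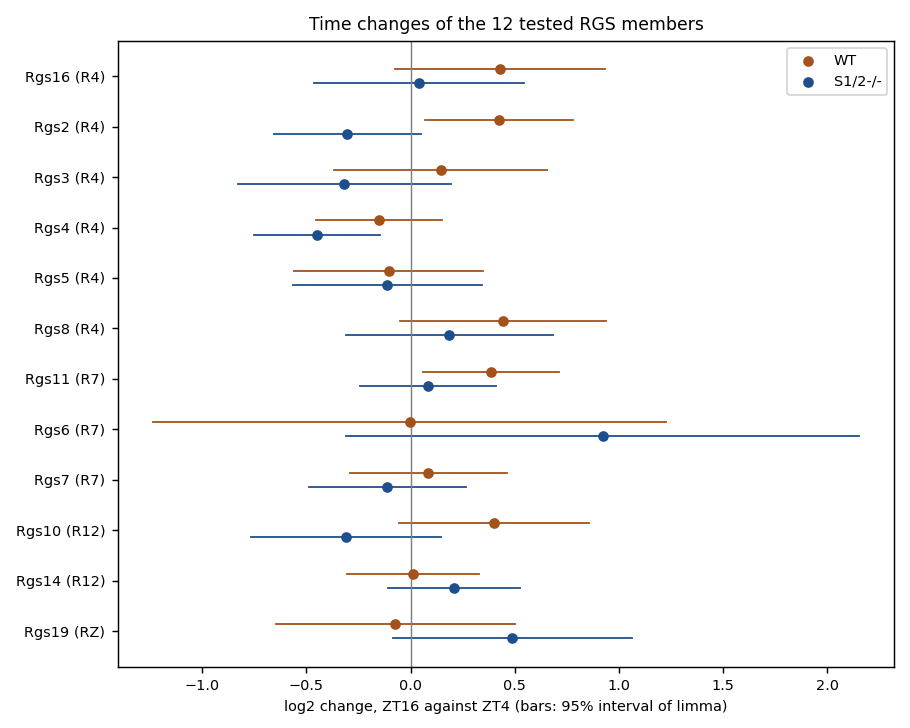
The log2 change from ZT4 to ZT16 (horizontal, with its 95% interval from limma) is drawn for the 12 tested RGS genes in WT and in S1/2-/- mice, with the group of each in parentheses. In each R4 row the S1/2-/- point lies left of or level with the WT point, by 0.73 for *Rgs2* and by 0.01 for *Rgs5*. The intervals overlap for 5 of the 6, and for *Rgs2* they run from 0.07 to 0.78 in WT and from -0.66 to 0.05 in S1/2-/- mice.

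*Rgs5*, known from pericytes of brain vessels, had values set apart by genotype rather than by time. It read 349 and 327 in WT at ZT4, 343 and 288 in WT at ZT16, 508 and 424 in S1/2-/- mice at ZT4 and 481 and 384 in S1/2-/- mice at ZT16, and every S1/2-/- mouse was above every WT mouse. S1/2-/- minus WT over both times was 0.45 (SE 0.14, adjusted p = 0.273). The second probe set gave 270, 161, 159 and 189 in WT mice, and values of 298.5, 323, 281 and 250.2 in S1/2-/- mice, with a difference of 0.59 (SE 0.20, adjusted p = 0.299) and 1 WT mouse inside the S1/2-/- range. The 7 vessel markers, 6 of them tested, summed to 1725 to 2157 in WT and 1868 to 2393.5 in S1/2-/- mice, and these ranges overlap. *Cldn5* was the largest part of the sum, at 682 to 1005, so the sum does not measure pericytes alone. The part of vessel cells in the difference of *Rgs5* was not tested. The oligodendrocyte markers, 8 of 10 with a probe set and 7 tested, summed to 16854 to 22904 in WT and to 26041 to 29580 in S1/2-/- mice without overlap, and their part in the difference of *Rgs5* was not tested.

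*Rgs14*, an RGS protein of the R12 group that binds Gi, had the reverse sign. It gave 1505 and 1607 in WT at ZT4, 1380 and 1779 in WT at ZT16, 1253 and 1131 in S1/2-/- mice at ZT4, and 1320 and 1432 in S1/2-/- mice at ZT16. The difference over both times was -0.29 (SE 0.10, adjusted p = 0.301) and at ZT4, where the genotypes do not overlap, -0.39 (SE 0.14, adjusted p = 0.585). *Rgs9*, the striatal member of the R7 group, was the only RGS gene under the filter, at 4.55 and 21.7, 7.13 and 9.69 in WT at ZT4 and ZT16 and 68.2 and 48.3, 33.7 and 54.6 in S1/2-/- mice. All S1/2-/- mice were above all WT mice, but 10% of all signals of an array lay under 15.2 to 17.4, which puts the WT values among the dimmest, and without a filter the adjusted p was 0.297 for a difference of 2.45 (SE 0.60). The striatal marker sums above did not overlap between genotypes at ZT4 and overlapped at ZT16, and their part in the *Rgs9* values was not tested.

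**Figure D4:**
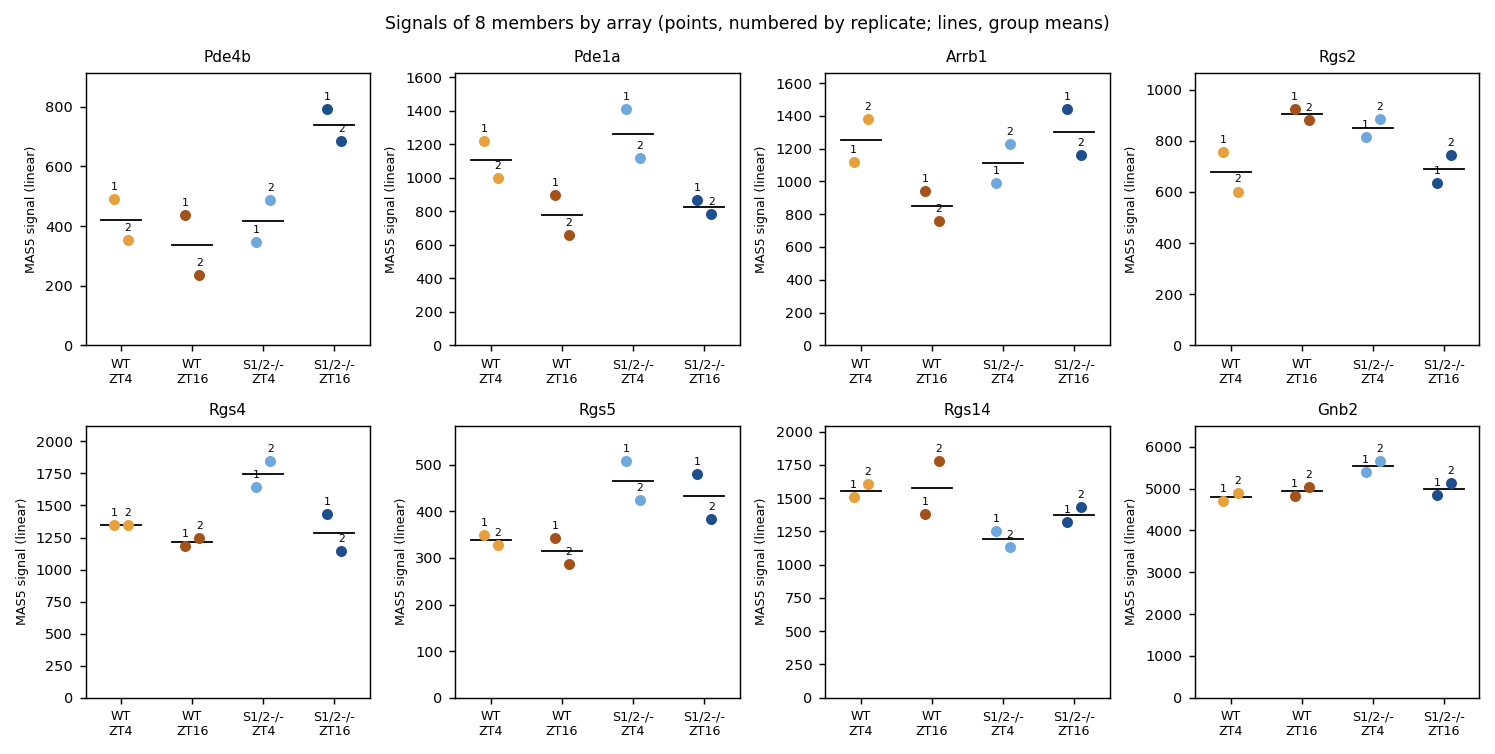
MAS5 signals (vertical, linear from 0) of 8 members are shown for the 4 groups, with 1 point per mouse, numbered by replicate, and lines at the group means (n = 2). *Pde4b* reads 686 and 793 in S1/2-/- mice at ZT16 against 237 to 489 elsewhere, and *Pde1a* is lower at ZT16 than at ZT4 in both genotypes.

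All 7 adenylyl cyclase genes measured were tested. *Adcy2*, a cyclase stimulated by beta-gamma dimers, stayed between 2211 and 2705 with overlap between all groups. *Adcy9* stayed between 1186 and 1645, and only the S1/2-/- groups did not overlap, with 1393 and 1321 at ZT4 against 1453 and 1403 at ZT16. The median highest-to-lowest ratio of the 7 was 1.39, against 1.56 over all genes tested, while their median SD within groups was 0.21 on the log2 scale, against 0.19. The extreme changes of the family belonged to *Adcy7*, which over both times was -0.74 in S1/2-/- against WT mice (SE 0.33) with signals from 60.1 to 168, and to *Adcy4*, known from vessels, at 68.4 to 267. *Adcy7* too passed the filter only through the mice in which it is high, with a mean log2 signal of 7.20 in WT mice and 6.46 in S1/2-/- mice. Its change is thus a description. *Adcy7* and *Pdc* were the 2 of the 48 members for which leaving out a group, a genotype or a time gave a mean under the filter. *Adcy1* and the striatal *Adcy5* were not analysed here.

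Of the 10 phosphodiesterase genes 7 were tested. *Pde4b*, which encodes a cAMP phosphodiesterase that is induced by cAMP itself, gave 489 and 353 in WT at ZT4, 438 and 237 in WT at ZT16, 348 and 488 in S1/2-/- mice at ZT4, and 793 and 686 in S1/2-/- mice at ZT16. The last 2 mice were above all others, which overlapped. At ZT16 S1/2-/- mice had a 2.29-fold higher signal (SE 0.30 on the log2 scale, adjusted p = 0.263), and from ZT4 to ZT16 it was 1.79-fold higher in S1/2-/- mice (adjusted p = 0.586) and -0.37 on the log2 scale in WT. The difference between these changes was 1.21 (SE 0.42, adjusted p = 0.811). This was the only member called under any alternative: without WT ZT16 replicate 1, and so with the lower of the WT mice alone, the difference at ZT16 was 1.64 with an adjusted p of 0.0218, in a fit that called 154 probe sets in all against 1 with all arrays. Without WT ZT16 replicate 2 it was 0.75 with an adjusted p of 0.562, over 1.5 times smaller than with all arrays.

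*Pde1a*, a phosphodiesterase activated by calcium and calmodulin, had the same direction with time in both genotypes. It read 1220 and 998 in WT at ZT4, 900 and 657 in WT at ZT16, 1413 and 1117 in S1/2-/- mice at ZT4 and 868 and 783 in S1/2-/- mice at ZT16, and all ZT16 mice were below all ZT4 mice. The change was -0.52 in WT and -0.61 in S1/2-/- mice (SE 0.19 for each) and -0.56 over both genotypes (SE 0.13, adjusted p = 0.340), 0.68 times the level at ZT4, and the genotypes differed by -0.09 (SE 0.27). The second probe set gave 283 and 356 in WT at ZT4, 221 and 308 in WT at ZT16, 406 and 323 in S1/2-/- mice at ZT4 and 342 and 250.5 at ZT16, a change of -0.30 over both genotypes (SE 0.19) with overlap. *Pde6d*, which encodes a carrier of prenylated proteins, read 569 to 794. The 3 genes under the filter were *Pde1c* and the photoreceptor genes *Pde6b* and *Pde6g*, and *Pde4d*, *Pde7b* and the striatal *Pde10a* were not analysed here. *Pde4dip*, outside the families, read 1388 to 1756.

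For 16 of the tested members 2 or more probe sets were tested, and all probe sets of a gene had the same sign in 12 of 16 genes for the WT time change, 8 of 16 for the S1/2-/- time change and 7 of 16 for the difference between them.

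The mouse that most often held the extreme value was WT ZT16 replicate 2. It gave the lowest signal for 13 of the 48 tested members (27.1%) and the highest for 15 (31.2%), against 18.8% and 19.2% of all genes tested. Each other array was lowest for 4.2 to 22.9% of the members and highest for 6.2 to 14.6%. The other WT mouse at ZT16 was lowest or highest for 8 of the 48.

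**Figure D5:**
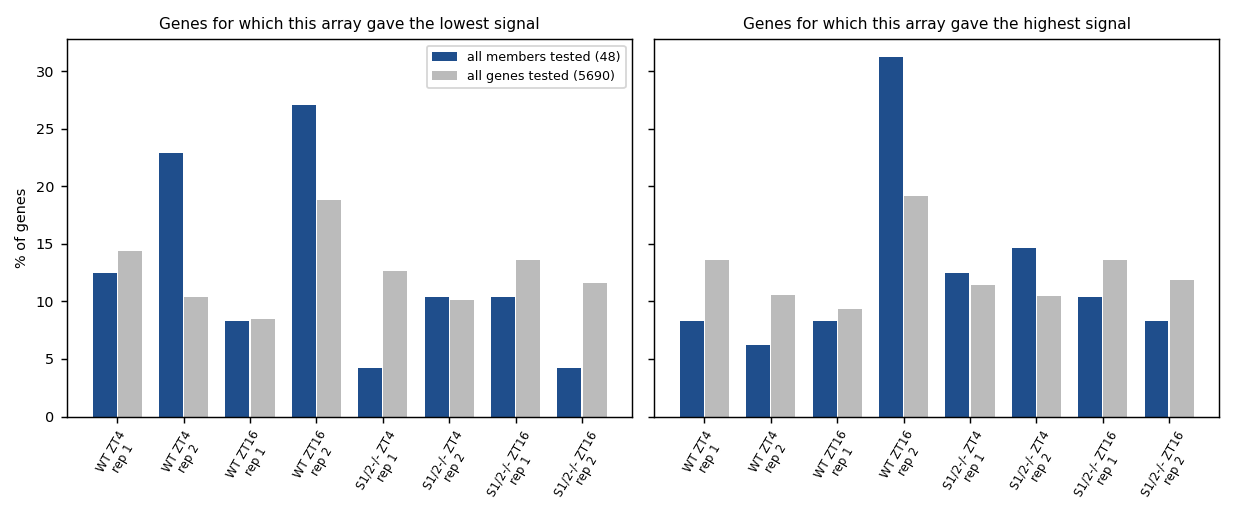
The share of genes (vertical, %) for which each of the 8 arrays gave the lowest (left) or the highest (right) signal is drawn for the 48 tested members and for the 5690 genes tested. WT ZT16 replicate 2 has the tallest bar in both panels, at 27.1% and 31.2% of the members.

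Of the other genes of the pathway, 33 were tested, among them subunits, anchors and inhibitors of protein kinase A, G protein effectors, and kinases and cofactors of receptors, and none was called. Their median changes lay between -0.04 and 0.11. *Prkce*, a protein kinase C activated downstream of Gq, had a difference of -0.28 between ZT16 and ZT4 over both genotypes (SE 0.07, adjusted p = 0.344), and *Rap1gap*, which turns off the small G protein Rap1 and binds Gz, had one of 0.31 (adjusted p = 0.354). *Prkaca*, a catalytic subunit of protein kinase A, had a difference between the genotypes in the change with time of 0.53 (adjusted p = 0.738). Of the 12 tested genes of protein kinase A, 9 had a positive difference, where 2853 of 5690 genes tested had one. Their median was 0.25 and moved with single arrays, to 0.40 without WT ZT16 replicate 1. The 12 differences share the same 8 mice.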

How the data were processed

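Cortical RNA of 8 mice was measured on Affymetrix arrays, and the authors deposited 1 intensity (MAS5 signal, linear scale) per probe set and array, already scaled to a trimmed mean near 500; the MAS5 version and array build are not given in the sources used here. For this report, 66 control probe sets were dropped, the 64 signals under 1 were raised to 1, and log2 was taken. Of 12422 probe sets, 10833 had 1 symbol, 396 several and 1193 none. Those with a mean log2 signal at or above the 40th percentile entered a fit of 4 group means with an intensity trend in limma 3.58.1 under R 4.3.3 (4 residual degrees of freedom), and p was adjusted by Benjamini-Hochberg over 7453 probe sets. Members under the filter have values from a fit without it. The steps were tested on simulated data with changes larger than those of any tested member but *Pdc*. How many changes of smaller size the steps would find was thus not tested. Depth is not defined for arrays, and their number limits the precision.

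The members, gene lists and tests were chosen with earlier results of these data known. Named are *Pdc*, *Arrb1* and *Arrb2*, the 3 members of lowest p per comparison, the 2 of highest signal per family, striatal members, and members responsive to activity or the clock; other genes, and second probe sets, were chosen after their values were seen. As alternatives, the filter was dropped or set at the 60th percentile. Median centring, quantile normalization, an added pseudocount of 16, no trend and the mean of all probe sets of a gene were also tried. So were a replicate block, a plain ANOVA of the group means without limma's sharing of the spread over probe sets, and leaving out each array.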

Additional observations from a re-analysis of the deposited data

How the results depend on the processing

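Under all 17 alternatives in the 7 comparisons, the count of called members remained 0 with 1 exception, S1/2-/- against WT at ZT16, where it ranged from 0 to 1 over the leave-one-out fits (*Pde4b*, without WT ZT16 replicate 1). No change of the 21 pairs of gene and comparison with the lowest p was reversed. None of the alternatives took the second probe set of a gene alone. That of *Arrb1* had the opposite sign for S1/2-/- against WT at ZT16. Over the alternatives the log2 change of *Pde4b* at ZT16, S1/2-/- against WT, ranged from 0.75 to 1.64. That of *Pdc* with time in WT ranged from 1.97 to 2.44 over the 15 alternatives that kept its probe set. As *Pdc* passed the filter only through WT at ZT16, its values are a description. The median change of the members moved by more than its spread between replicates in 12 fits and never beyond -0.12 or 0.12. With median centring the median change of all genes was -0.11 for S1/2-/- against WT at ZT16, and in size at most 0.07 elsewhere. The change of *Pde4b* at ZT16 was larger in size than this median. Replicates of the same number deviated with correlations of -0.00 to 0.10, so the numbers do not pair the mice. With the replicate block, 0 members were called in each comparison, and the adjusted p was 0.269 for *Pde4b* at ZT16. Over all probe sets the count of calls was unstable: for the WT time change it was 1 with all arrays, 10 with the block, 5 with median centring and 4 with the 60th percentile filter, and 0 to 100 without single arrays. For the genotypes it was 1 at ZT16, 7 at ZT4 and 19 over both times, with 0 to 154, 0 to 14 and 0 to 88 over the alternatives. For the S1/2-/- time change, the difference between the changes and the time change over both genotypes it was 0, with 0 to 1, 0 to 17 and 0 to 35. Without a trend, or with a plain ANOVA of the group means, it was 0 throughout. The methods name ANOVA for changes over time and moderated t-statistics for genotypes, so this fit does not repeat their procedure. Without WT ZT16 replicate 1, the remaining WT mouse at ZT16 is assumed to vary like the other groups. A change under 1.5-fold cannot be called, and 12 dim members have values near background.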
